A study of Homo sapiens with 4 samples.

Results

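The genes described here are 36 genes of the extracellular matrix, of the contractile cytoskeleton and of transforming growth factor β (TGF-β) signalling, out of 18132 genes with a value on the arrays. The members were a chosen list of genes, and each was matched to probe sets carrying only its symbol in the platform's gene table. All 36 were found. They comprised 14 collagens, 10 contractile and matricellular genes and 12 other genes, and the comparison of interest was that of the collagens with the contractile and matricellular genes. U87MG, an established line of human glioblastoma cells, was grown in medium with 10% fetal bovine serum and exposed for 24 h to DMSO (the control), to 10 µM mycophenolic acid (MPA), to 100 µM guanosine, or to MPA and guanosine at the same doses. MPA inhibits IMP dehydrogenase, an enzyme of guanine nucleotide synthesis, and guanosine can supply guanine nucleotides by another route. Total RNA of each condition was read on 1 Affymetrix PrimeView array, so every difference is between 2 arrays, with no replicate, no spread and no p-value. All cells were of 1 line, and in such bulk RNA, fewer cells that express a gene and less RNA per cell cannot be told apart.

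Collagens are built from 3 chains wound into a triple helix. Fibrillar collagens (types I, III and V) give tissue its tensile strength, type IV collagen and laminins form the sheet of the basement membrane, and type VI collagen forms beaded filaments. Matricellular proteins are secreted into the matrix and act on cells more than they bear load. TGF-β ligands bind cell surface receptors that phosphorylate SMAD proteins, which enter the nucleus and raise transcription of many matrix genes and of SMAD7, an inhibitor in the same pathway. Contractile genes such as ACTA2 and TAGLN and matricellular genes such as CCN1 and CCN2 also respond to actin tension through the SRF and YAP/TEAD factors. Glioblastoma cells deposit a matrix of this kind in culture and in the brain.

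Signals are RMA intensity values on the linear scale, and differences are on the log2 scale. A signal of 63.0, the median of all values, served as the floor below which a probe set was taken as too dim to measure. Of the 36 members, 32 were at or above it on at least 1 array. The 4 others, COL3A1, COL4A1, POSTN and TGFB2, were below it on all 4 arrays, and their signals ran from 19.5 to 40.3. Of 18132 genes, 11019 reached the floor on at least 1 array. A signal depends on each probe set's binding, so it is compared between arrays and never between genes. The arrays themselves were alike in the reading of RNA integrity, with an ACTB 3' minus 5' log2 value between 1.72 and 1.89. The poly-A spike-in controls, added before labelling, had a median difference from control of -0.24 on the MPA array, 0.22 with guanosine and 0.24 with both compounds. Of 8 glioma and mesenchymal markers, 6 were above the floor, with VIM between 18322 and 20015, while S100B and SOX2 were below it. With MPA, CHI3L1 of this list was higher by 0.69 and NES lower, at -0.63. Of 5 leukocyte markers 0 were above it, and of 5 endothelial markers 2 were.

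The promoters of ACTA2, CCN2, THBS1 and COL4A2 are shown first, because these were among the 5 members whose measured signals differed by at least 1.5-fold between the MPA and control arrays. The windows are RefSeq sequences of build GRCh38.p14, each with 250 bases before and 50 bases after a transcription start, and 26 of the 36 members had at least 1. CCN2 lies at chr6:131951323-131951622 on the minus strand and THBS1 at chr15:39580829-39581128 on the plus strand. ACTA2 has an inner start at chr10:88952724-88953023 and an outer start at chr10:88991288-88991587, both on the minus strand. COL4A2 lies at chr13:110307034-110307333 on the plus strand. In the first 3 sequences capitals mark GGAATG, the core of the MCAT element that TEAD factors bind. In the ACTA2 outer window capitals mark the 193 bases shared with a window of FAS, a death receptor gene on the opposite strand, and in COL4A2 the 226 bases shared with the window of COL4A1 on the opposite strand.
CCN2: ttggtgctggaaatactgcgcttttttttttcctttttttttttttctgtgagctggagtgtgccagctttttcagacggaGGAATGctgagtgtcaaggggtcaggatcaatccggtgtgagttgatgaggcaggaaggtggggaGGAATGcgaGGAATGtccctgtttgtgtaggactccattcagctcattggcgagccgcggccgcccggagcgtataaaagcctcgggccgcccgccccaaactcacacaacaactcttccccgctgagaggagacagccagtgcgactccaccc
THBS1: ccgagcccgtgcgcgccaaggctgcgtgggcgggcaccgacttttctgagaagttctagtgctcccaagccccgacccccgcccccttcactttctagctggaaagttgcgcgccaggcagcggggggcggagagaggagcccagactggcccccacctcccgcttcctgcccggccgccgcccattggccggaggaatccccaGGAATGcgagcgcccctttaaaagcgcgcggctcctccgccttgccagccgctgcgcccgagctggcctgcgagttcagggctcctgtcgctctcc
ACTA2 inner start: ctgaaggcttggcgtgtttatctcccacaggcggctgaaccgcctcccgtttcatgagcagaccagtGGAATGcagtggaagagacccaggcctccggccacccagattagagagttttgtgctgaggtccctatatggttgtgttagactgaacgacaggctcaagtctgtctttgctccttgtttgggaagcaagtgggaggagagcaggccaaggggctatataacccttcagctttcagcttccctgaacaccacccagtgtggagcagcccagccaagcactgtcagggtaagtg
ACTA2 outer start: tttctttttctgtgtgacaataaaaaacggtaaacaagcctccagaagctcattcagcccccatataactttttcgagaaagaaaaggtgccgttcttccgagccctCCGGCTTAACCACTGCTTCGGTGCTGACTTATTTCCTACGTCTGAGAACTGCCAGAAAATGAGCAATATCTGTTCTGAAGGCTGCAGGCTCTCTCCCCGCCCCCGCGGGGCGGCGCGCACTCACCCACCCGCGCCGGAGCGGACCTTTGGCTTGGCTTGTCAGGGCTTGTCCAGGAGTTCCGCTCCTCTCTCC
COL4A2: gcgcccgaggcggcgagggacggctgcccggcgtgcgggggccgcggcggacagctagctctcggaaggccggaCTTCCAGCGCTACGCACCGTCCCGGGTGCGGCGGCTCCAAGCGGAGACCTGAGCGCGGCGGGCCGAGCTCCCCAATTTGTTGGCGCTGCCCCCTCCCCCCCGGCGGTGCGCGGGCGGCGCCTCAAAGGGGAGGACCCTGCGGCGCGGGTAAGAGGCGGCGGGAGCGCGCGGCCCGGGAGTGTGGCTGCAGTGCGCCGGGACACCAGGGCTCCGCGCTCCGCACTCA

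The letters GGAATG, searched on both strands, occurred 3 times in the CCN2 window and once in those of THBS1 and the ACTA2 inner start. Of the 26 members with a window, 8 held it: ACTA2, CCN2, COL12A1, FBN1, SPARC, TGFB2, THBS1 and THBS2. Among 27305 genes with windows of the same length, 16.7% held it, as did 14.0% of 35116 windows. The letters CAGAC, a box that SMAD proteins bind, were also searched on both strands. They occurred in 14 of the 26 members, among them ACTA2, CCN2, THBS1, THBS2 and LOX, and in 13649 of 27305 genes or 45.3% of windows, so they are common in windows of this length. COL12A1 and FBN1, which hold GGAATG, differed by 0.25 and 0.01 with MPA on the log2 scale. CCN1, TAGLN and HAS2 were among the members without a window, so their promoters were not searched. These matches describe the letters of the windows, and no binding was measured.

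MPA against control asks what the inhibitor did in the absence of added guanosine. The contractile and matricellular members were higher on the MPA array as a group, and the collagens among the members were not. The 9 contractile and matricellular members that could be compared had a median log2 difference of 0.41, with 8 higher and 1 lower. The 12 member collagens had a median of -0.03, with 5 higher and 7 lower, and ran from -0.70 (COL4A2) to 0.41 (COL1A2). Of the collagens outside the member list, 5 could be compared, and all 5 were higher with a median of 0.37. The contrast therefore holds for the listed collagens and not for collagens in general. All 32 members compared had a median of 0.10, and the 10951 genes compared had a median of 0.0024 with 50.3% higher. With the floor raised to the 75th percentile, the contractile and matricellular median was 0.27, over 6 genes.

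On measured signals, whether or not the dimmer one was below the floor, 3 of the 32 members were higher with MPA by 1.5-fold, a log2 difference of 0.585 (ACTA2, CCN2 and THBS1). By the same count 2 were lower (HAS2 and COL4A2). Among all genes compared, 5.41% were higher by this much and 7.52% lower. THBS1 in the control and HAS2 with MPA were below the floor. With the floor in place of such signals, ACTA2 and CCN2 were the 2 members higher and COL4A2 the 1 member lower, against 4.92% and 7.22% of all genes. At 2-fold on measured signals, ACTA2 was the 1 member higher and HAS2 the 1 member lower, against 1.73% and 1.42%. With the floor in place of dimmer signals, ACTA2 alone was left (1 higher and 0 lower), against 1.48% and 1.27%. These counts are close to the background shares and are no result about the members as a whole. With the median over each gene's probe sets, 25 members could be compared, and 1 was higher and 1 lower by 1.5-fold. The share over all genes was not counted under that setting.

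**Figure D1:**
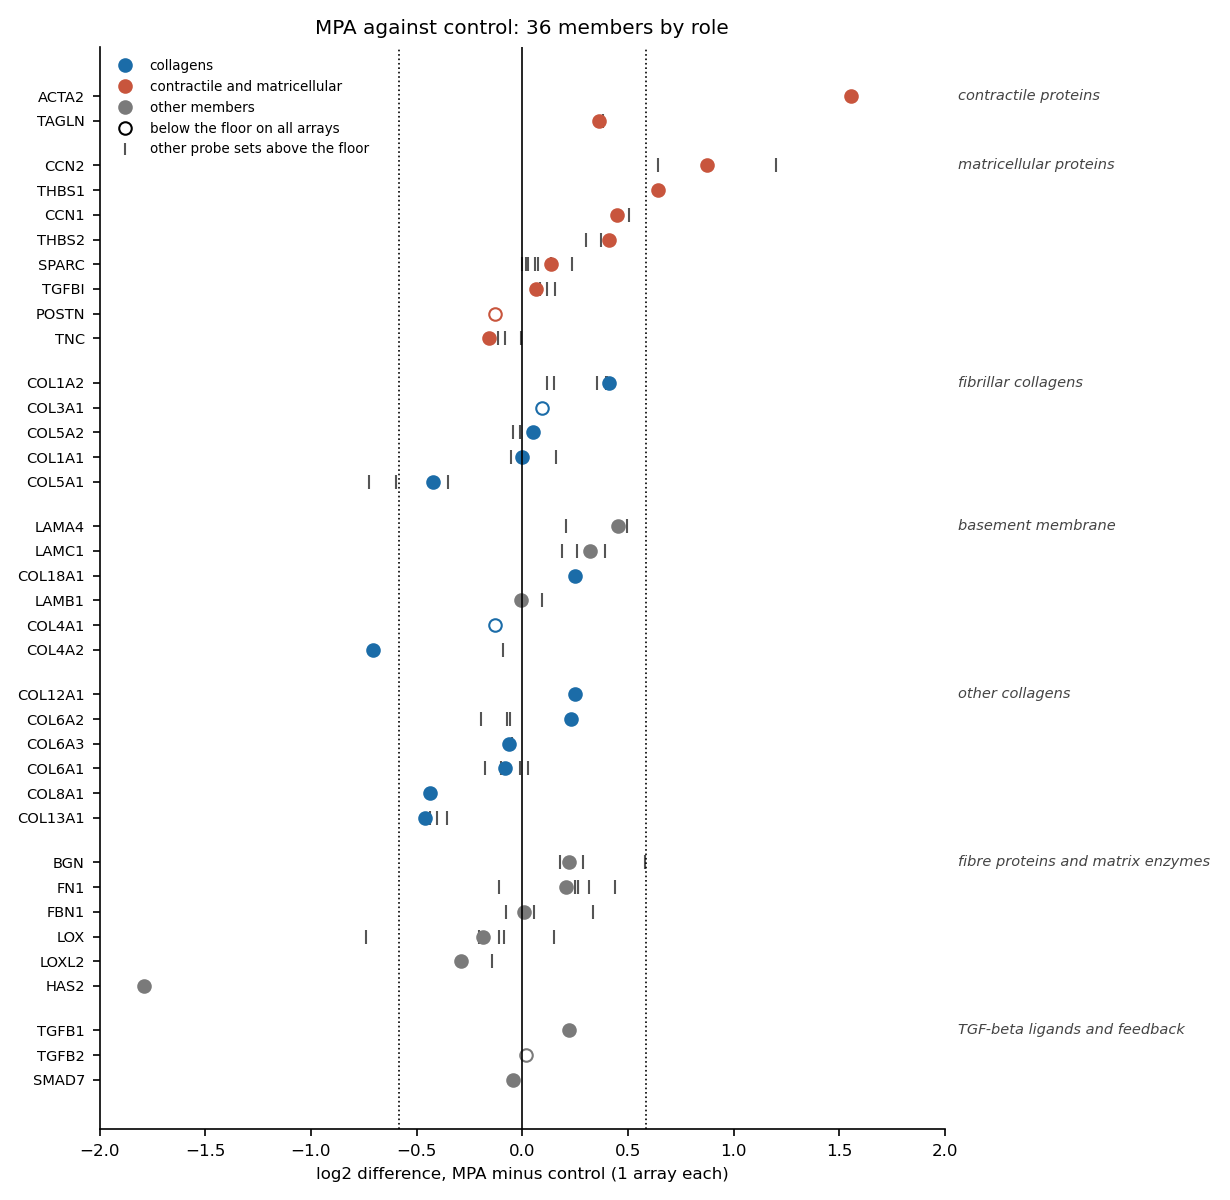
Log2 difference of each of the 36 members between the MPA array and the control array (horizontal axis, 1 array each), grouped by role. Filled points are members above the floor on at least 1 array, open points members below it on all 4, ticks further probe sets of the gene above the floor, and dotted lines 1.5-fold. ACTA2 lies furthest right at 1.55. HAS2 lies furthest left at a measured -1.79, with its MPA signal below the floor, and the collagens lie on both sides of 0.

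ACTA2 encodes smooth muscle α-actin, the actin of contractile cells and myofibroblasts. Its signal was 503 in the control, 1476 with MPA, 581 with guanosine and 583 with both compounds. The MPA array stood alone, and the other arrays lay within 0.21 of each other on the log2 scale. The difference from control was 1.55 with MPA, or 2.94-fold. It rests on 1 probe set of a kind (_s_at) whose probes can bind several transcripts. The gene's other 2 probe sets were below the floor on all arrays and differed by 0.26 and -0.15. Taking the median signal of the 3 probe sets on each array selects the probe set with -0.15, which is too dim to measure.

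In the RefSeq gene table the span of ACTA2 overlaps that of FAS, a p53 target. FAS had a signal of 304 in the control, 857 with MPA, 305 with guanosine and 291 with both, a log2 difference of 1.5 with MPA. STAMBPL1, the neighbour on the other side, had a signal of 313 in the control and 261 with MPA, a difference of -0.26. Where the ACTA2 probes bind is not given in the sources used here, and the part of FAS transcripts in the ACTA2 signal was not tested. TAGLN, which encodes the actin-binding protein transgelin, had a signal of 84.4 in the control, 109 with MPA, 81.4 with guanosine and 79.0 with both. It too was highest with MPA, by 0.36, with 0.38 at the other bright probe set.

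Among the matricellular genes, CCN2 differed most. CCN2 (connective tissue growth factor) is a secreted regulator of adhesion and fibrosis and a target of TGF-β and YAP/TEAD. Its signal was 378 in the control, 693 with MPA, 312 with guanosine and 336 with both compounds. The MPA array was 1.83-fold above the control, a difference of 0.87, and the arrays with guanosine lay below the control. Its 2 other probe sets gave 0.64 and 1.20. CCN1, a related integrin ligand, had a signal of 130 in the control, 177 with MPA, 113 with guanosine and 130 with both. Its difference with MPA was 0.45, and 0.50 at its other probe set, so both members of this family were higher with MPA than on the other arrays.

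Thrombospondins bind cells and matrix, and the product of THBS1 can activate latent TGF-β. THBS1 had a signal of 58.1 in the control, 90.6 with MPA, 61.0 with guanosine and 69.2 with both compounds. The control and guanosine signals were below the floor, so THBS1 was at least 1.44-fold higher with MPA. Its 4 other probe sets were below the floor on all arrays. THBS2 had a signal of 331 in the control, 440 with MPA, 375 with guanosine and 422 with both. It was higher by 0.41 with MPA and by 0.35 with both compounds, so unlike ACTA2 and CCN2 its array with both compounds lay nearer to MPA than to the control. At its 2 other probe sets that array lay closer to midway, 0.22 and 0.16 above the control and 0.15 and 0.14 below MPA. Guanosine alone was also above the control, by 0.18, and by 0.33 and 0.19 at the other probe sets.

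The remaining matricellular genes differed little. SPARC, a collagen-binding glycoprotein, had a signal of 2264 in the control and 2492 with MPA, a difference of 0.14, and lay between 1904 and 1960 on both arrays with guanosine. Its 7 other probe sets gave -0.00 to 0.24 with MPA, 6 of them in the same direction. The -0.00 came from its brightest, an _x_at probe set, whose probes can bind several genes. Another of them was higher with guanosine (2119) and with both compounds (2106) than in the control (1923). TGFBI, a TGF-β-induced adhesion protein, had a signal of 5749 in the control, 6011 with MPA, 6027 with guanosine and 5777 with both, and differed by 0.06 with MPA. TNC (tenascin C), abundant in the glioma matrix, was the 1 member of the group that was lower, at 3305 with MPA against 3689 in the control (-0.16). The matricellular genes together had a median of 0.41 over 7 genes, of which 6 were higher.

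**Figure D2:**
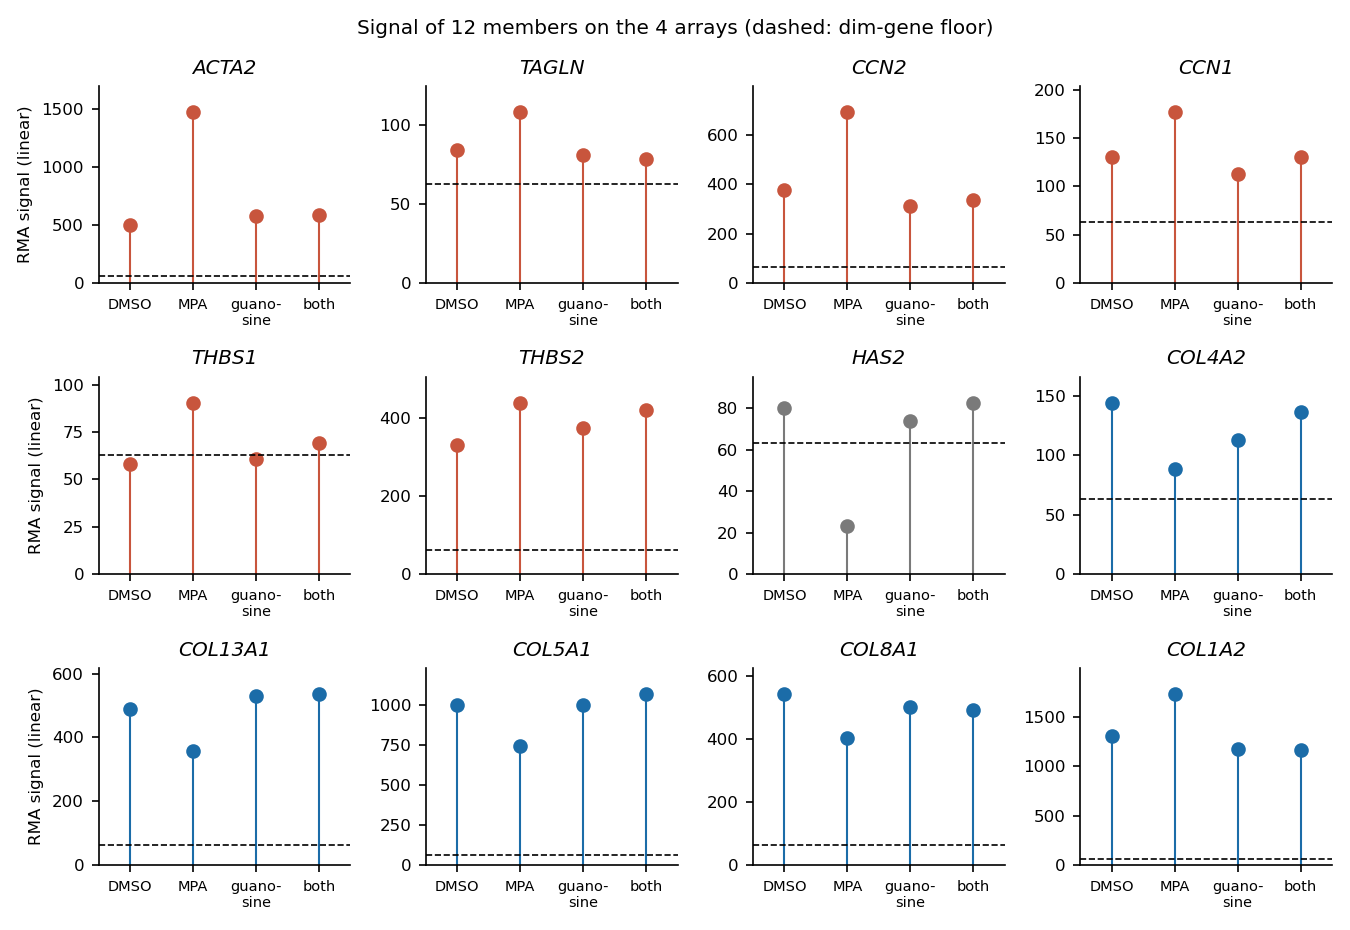
RMA signal (vertical axis, linear, starting at 0) of 12 members on the 4 arrays, 1 point per array, with the floor of 63.0 as a dashed line. ACTA2, CCN2 and COL1A2 are highest with MPA, and HAS2, COL4A2, COL13A1, COL5A1 and COL8A1 are lowest with MPA. THBS2 is also higher with both compounds (422) than in the control (331).

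The fibrillar collagens divided by chain. The 2 chains of type I collagen, the main collagen of bone and skin, are made by COL1A1 and COL1A2. COL1A1 had a signal of 167 in the control, 166 with MPA, 145 with guanosine and 157 with both. COL1A2 had a signal of 1306 in the control, 1734 with MPA, 1170 with guanosine and 1163 with both. COL1A2 was thus higher with MPA by 0.41 (0.12 to 0.40 over its 5 other probe sets), while COL1A1 differed by -0.00 and its other probe sets lay between -0.05 and 0.16. Type V collagen, which sets the width of type I fibrils, showed the opposite order of sizes. COL5A1 had a signal of 999 in the control, 746 with MPA, 1000 with guanosine and 1073 with both. Its difference with MPA was -0.42, with -0.73 to -0.35 over 3 other probe sets. COL5A2, the partner chain, differed by 0.05, at 535 in the control and 554 with MPA. COL3A1 was below the floor on all arrays. The 4 fibrillar collagens measured had a median of 0.02.

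Of the basement membrane genes, COL4A2 was lower with MPA and the laminins were higher or level. COL4A2 encodes the α2 chain of type IV collagen. Its signal was 144 in the control, 88.4 with MPA, 113 with guanosine and 136 with both compounds. The MPA array was lowest, by -0.70, and the guanosine array was also lower than the control, by -0.35. Its other probe set above the floor gave -0.09 with MPA and 0.10 with guanosine, so both differences stand on 1 probe set. COL4A1, the partner chain that shares its start region, was below the floor on all arrays, and the chains could not be compared. COL18A1, the precursor of endostatin, had a signal of 83.1 in the control, 99.0 with MPA, 94.2 with guanosine and 71.0 with both. It differed by 0.25 with MPA, and among the 3 arrays without MPA alone it had the widest range of all members, 0.41. LAMA4, LAMB1 and LAMC1 encode the α4, β1 and γ1 chains of a laminin trimer. LAMA4 had a signal of 194 in the control, 266 with MPA, 187 with guanosine and 210 with both, a difference of 0.45 with MPA. LAMC1 had a signal of 2747 in the control, 3431 with MPA, 3065 with guanosine and 3030 with both, a difference of 0.32. LAMB1 lay between 1407 and 1460 on all arrays and differed by -0.01. The differences of the chains of this trimer thus ran from -0.01 to 0.45.

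Among the other collagens, type VI was level and 2 collagens were lower with MPA. COL6A3 had a signal of 9354 in the control, 8950 with MPA, 9611 with guanosine and 9389 with both, a difference of -0.06 with MPA. COL6A1 lay between 6099 and 6778 on all arrays and differed by -0.08. The third chain, COL6A2, had a signal of 132 in the control and 155 with MPA, a difference of 0.23, but its 3 other probe sets gave -0.19 to -0.06, so its direction was not settled. COL13A1 is a transmembrane collagen of cell adhesion sites. Its signal was 490 in the control, 357 with MPA, 529 with guanosine and 537 with both. It was lowest with MPA, by -0.46, with -0.44 to -0.36 over 3 other probe sets. COL8A1, a short-chain collagen of vessel walls and the cornea, had a signal of 545 in the control, 403 with MPA, 501 with guanosine and 492 with both, a difference of -0.43. COL12A1, which binds along collagen fibrils, had a signal of 505 in the control and 600 with MPA, a difference of 0.25. None of these 6 collagens (0 of 6) passed 1.5-fold, against 5.41% of all genes compared higher and 7.52% lower, so the count is close to the background.

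HAS2 makes the matrix polysaccharide hyaluronan. Its signal was 80.2 in the control, 23.2 with MPA, 73.6 with guanosine and 82.6 with both compounds. The MPA signal was below the floor while the other 3 were above it, so HAS2 was at least 1.27-fold lower with MPA. The measured difference was -1.79, but its size and its rank among the members are not settled with 1 signal below the floor. The gene's other 2 probe sets were below the floor on all arrays. The collagen cross-linking enzymes LOX and LOXL2 were also lower with MPA and higher with guanosine. LOX had a signal of 703 in the control, 619 with MPA, 887 with guanosine and 782 with both, a difference of -0.18 with MPA, with -0.74 to 0.15 over 5 other probe sets. LOXL2 had a signal of 1144 in the control, 935 with MPA, 1401 with guanosine and 1305 with both, a difference of -0.29.

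FN1 (fibronectin), the fibre on which collagens assemble, had a signal of 7506 in the control, 8664 with MPA, 7963 with guanosine and 7609 with both. It was higher with MPA by 0.21, in the same direction as 5 of its 6 other probe sets. The microfibril gene FBN1 differed by 0.01, with -0.08 to 0.34 over 3 other probe sets. The proteoglycan gene BGN differed by 0.22, at 154 with MPA against 133 in the control.

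The TGF-β genes themselves differed little. TGFB1, the ligand, had a signal of 160 in the control, 186 with MPA, 148 with guanosine and 140 with both, a difference of 0.22 with MPA on its single probe set. SMAD7 had a signal of 84.1 in the control, 81.7 with MPA, 99.4 with guanosine and 95.6 with both, a difference of -0.04. TGFB2 was below the floor on all arrays. Of 22 further genes of TGF-β signalling compared, 1 was higher with MPA by 1.5-fold and 1 was lower, with a median of 0.03. The shares over all genes compared were 5.41% and 7.52%. The higher gene was TGFBR3, the co-receptor betaglycan, at 325 with MPA against 171 in the control (0.92). The lower gene was SMURF2, a ubiquitin ligase that acts on SMAD proteins and receptors, at 604 against 1060 (-0.81). The receptors TGFBR1 and TGFBR2 differed by -0.04 and 0.26, and SMAD2 and SMAD3 by -0.08 and 0.06.

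Genes that share regulators or partners with the members gave these values. Over all genes compared, 5.41% were higher with MPA by 1.5-fold and 7.52% lower, and the counts below are to be read beside these shares. Of 17 SRF and actin cytoskeleton genes, 1 was higher with MPA by 1.5-fold (FHL2, a LIM-domain cofactor, 0.69) and 0 were lower, with a median of 0.02 and SRF itself lowest at -0.45. In that list CNN1, a smooth muscle calponin, differed by 0.58, MYL9 by 0.45, CALD1 by 0.13 and TPM1 by -0.18. CNN1 was close to the floor in the control, at 65.9, and MYL9 was read on an _x_at probe set. Of 10 further genes of the YAP and TEAD list, which holds the factors YAP1 (0.18), WWTR1 (-0.27) and TEAD1 (-0.20) beside their targets, 0 were higher and 1 was lower (F3, tissue factor, -1.44), with a median of -0.04 and AJUBA highest at 0.42. Of 21 collagen processing genes, 0 were higher and 1 had a lower measured signal by 1.5-fold (ADAMTS3, a procollagen protease, -0.88, below the floor with MPA and so of unsettled size), with a median of 0.02 and CRTAP highest at 0.41. The prolyl hydroxylases P4HA1 and P4HA2 differed by 0.20 and 0.15. Of 25 collagens outside the member list, 5 could be compared, and all 5 were higher with MPA, with a median of 0.37 and COL16A1 lowest at 0.11. COL15A1, a basement membrane zone collagen, had a signal of 117 in the control and 201 with MPA (0.77), and COL7A1, the anchoring fibril collagen, 822 and 1379 (0.75). These 2 passed 1.5-fold. Fibroblast and pericyte markers had a summed signal of 896 in the control, 1071 with MPA, 958 with guanosine and 999 with both. Of these 6 markers 4 were above the floor, and DCN and LUM were below it. FAP, at 556 in the control and 730 with MPA (0.39), was the 1 marker of the 4 that was higher. PDGFRA (-0.20), PDGFRB (-0.09) and RGS5 (-0.21) were lower, for a median of -0.14. Their part in the values of the contractile genes was not tested.

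**Figure D3:**
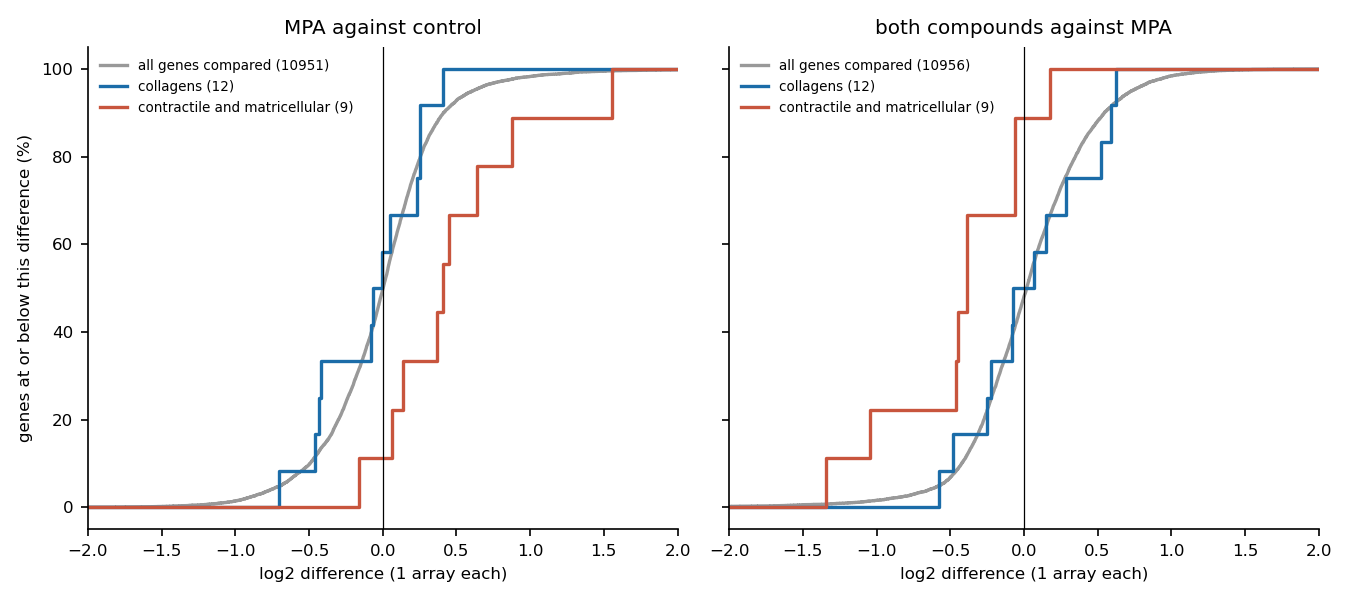
Cumulative share of genes (vertical axis, percent) at or below each log2 difference (horizontal axis) for MPA against control (left) and both compounds against MPA (right), over all genes compared (grey), 12 collagens (blue) and 9 contractile and matricellular genes (red). The member collagens cross 0 close to all genes. The red steps lie right of them on the left and left of them on the right, with medians of 0.41 and -0.39.

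Guanosine against control asks what the nucleoside did by itself. THBS1 did not reach the floor on either array. None of the 31 members compared passed 1.5-fold (0 higher and 0 lower), against 0.366% of 10663 genes higher and 0.131% lower, so the members' count is that of the background. The members had a median of -0.0086, with 15 higher and 16 lower. They ran from COL4A2 at -0.35 to LOX at 0.34, and LOXL2 was next highest at 0.29. CCN2 was lower by -0.28 and ACTA2 higher by 0.21. The collagens had a median of -0.05 and the contractile and matricellular genes one of -0.03.

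The array of both compounds was also set against DMSO alone. Of 32 members 0 were higher and 0 lower by 1.5-fold, against 0.469% and 0.169% of 10672 genes. The members had a median of 0.01, and ran from SPARC at -0.25 to THBS2 at 0.35. Another SPARC probe set gave 0.13, and the rest were lower than in the control. ACTA2 differed by 0.21, CCN2 by -0.17, HAS2 by 0.04 and COL4A2 by -0.08. The collagens had a median of -0.04 and the contractile and matricellular genes one of 0.0070.

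The effect of MPA on cells that also received guanosine is read from the array of both compounds against the guanosine array, neither of which entered the comparison of MPA with control. Of 32 members 0 were higher and 0 lower by 1.5-fold, against 0% and 0.0189% of 10599 genes. ACTA2 differed by 0.00, CCN2 by 0.10, THBS1 by 0.18 and TAGLN by -0.04. HAS2 differed by 0.17, COL4A2 by 0.27, COL5A1 by 0.10 and COL13A1 by 0.02. The member with the lowest value was COL18A1 at -0.41, and COL4A2 had the highest. The other COL4A2 probe set above the floor gave -0.11 here and -0.09 without guanosine, so the COL4A2 values stand on 1 probe set. The collagens had a median of 0.02 and the contractile and matricellular genes one of 0.03. The MPA difference with guanosine minus that without it was -1.55 for ACTA2, -0.77 for CCN2, 0.97 for COL4A2 and -0.66 for COL18A1. For HAS2 it has no settled size, because the MPA signal was below the floor. These differences of differences have no test, as each rests on 4 arrays.

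**Figure D4:**
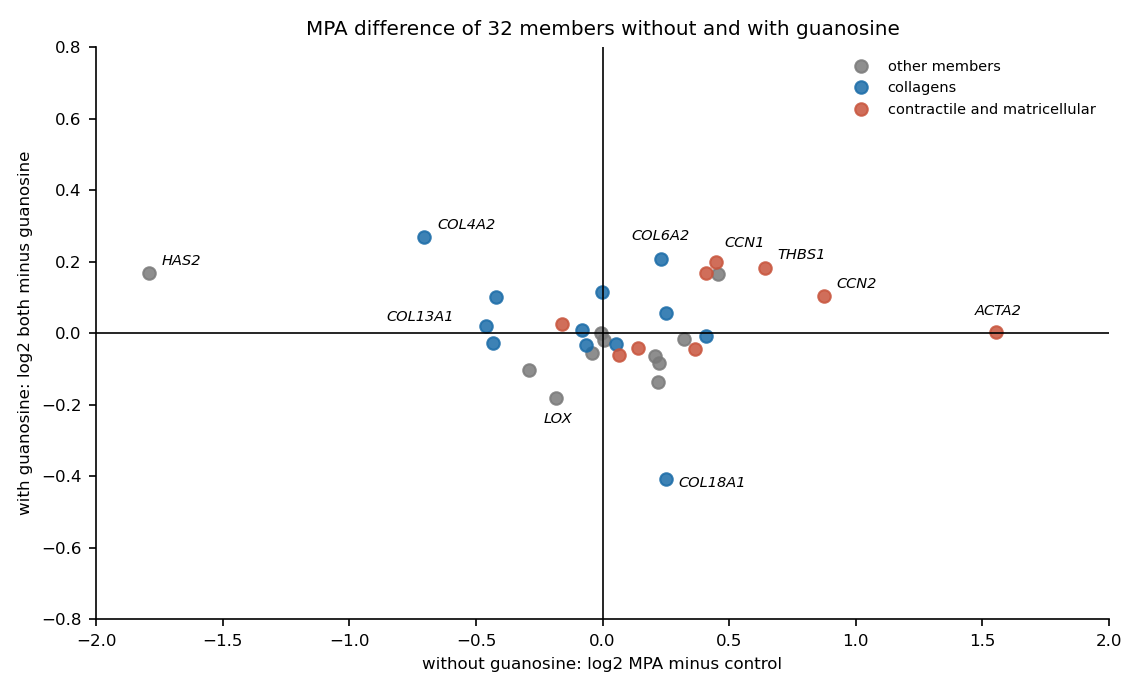
Log2 MPA difference of the 32 members without guanosine (horizontal axis, MPA minus control) and with guanosine (vertical axis, both compounds minus guanosine, drawn at a larger scale), 1 point per gene and 1 array per condition. The members spread from -1.79 (HAS2, below the floor with MPA) to 1.55 along the horizontal axis and from -0.41 to 0.27 along the vertical one.

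The array of both compounds against the MPA array shows how guanosine altered cells that also received MPA. This comparison shares the MPA array with MPA against control, so values that are high there tend to be low here. On measured signals, 3 of 32 members were higher with both compounds by 1.5-fold (HAS2, COL4A2 and COL13A1) and 2 were lower (ACTA2 and CCN2), against 8.82% and 4.77% of 10956 genes. HAS2 was below the floor with MPA. With the floor in place of such signals, 2 were higher (COL4A2 and COL13A1) and the same 2 lower, against 8.36% and 4.23%. At 2-fold the measured counts were 1 (HAS2) and 2 (ACTA2 and CCN2), against 1.63% and 1.55%, and with the floor 0 and 2, against 1.4% and 1.31%. The counts at 1.5-fold are close to the background. With the median over each gene's probe sets, 1 of 25 members was higher and 1 lower, and the share over all genes was not counted.

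The differences by member were as follows. ACTA2 differed by -1.34 on its 1 probe set above the floor. CCN2 differed by -1.05, with -1.23 to -0.97 over its other probe sets. HAS2 was at least 1.31-fold higher with both compounds, from below the floor with MPA. COL4A2 was 1.54-fold higher, or 0.09 on the log2 scale with the median of its probe sets. COL13A1 was 1.51-fold higher, a value at the edge of the threshold, with 0.40 to 0.49 over its other probe sets. COL5A1 was higher by 0.52, and COL1A2 differed by -0.576, just short of 1.5-fold. The collagens had a median of -0.0023 with 6 higher and 6 lower, and the contractile and matricellular genes one of -0.39 with 1 higher and 8 lower. The median of all genes was 0.02. In the wider lists, F3 (2.25) and SMURF2 (0.91) were higher by 1.5-fold with both compounds, and TGFBR3 (-0.77), COL15A1 (-0.65) and FHL2 (-0.64) were lower, as were FAS (-1.56) and the glioma marker CHI3L1 (-0.70). In the collagen processing list 0 of 20 genes passed 1.5-fold in either direction, against 8.82% of all genes higher and 4.77% lower. COL7A1 differed by -0.50.

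Across the 4 arrays, the MPA array held the highest signal of 17 of the 32 members and the lowest of 11. Among the 11019 genes above the floor it held the highest of 40.8% and the lowest of 42.0%. The members' log2 range over the 4 arrays had a median of 0.41, and 0.32 for all genes. Without the MPA array these medians were 0.17 and 0.14.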

How the data were processed

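Total RNA of 4 cultures, 1 per condition, was read on 4 arrays. The deposited values are probe set intensity made by RMA, per the labels, which give no settings; the software is not stated in the sources used here. Its quantile step gives the arrays near-equal distributions, which would hide a shift in total mRNA per cell. The log2 was taken of each value. A gene was its brightest probe set by mean log2 over the 4 arrays, with probe sets ending in _x_at, which can bind several genes, used only where no other existed. Symbols came from the platform's gene table (44994 of 49395 probe sets with 1 symbol), and all 36 members matched RefSeq by Entrez ID. A comparison took in the genes whose brighter array was at or above the floor of 63.0. Where the dimmer array was below it, the floor stands in for it and the fold is written "at least". Genes were counted at 1.5-fold and 2-fold on measured signals. Counts with the floor in place of dimmer signals were added after the data were seen.

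The members and gene lists were chosen with earlier results of these data known, and the 2 promoter motifs and the printed promoters with the members' values known. All members are named. Genes of the other lists are named where they passed 1.5-fold, as the highest or lowest of their list, or as receptors, SMADs, contractile genes or prolyl hydroxylases chosen after their values were seen. The replicate-free design allows no test; the number of arrays limits the precision. Alternatives were no floor, a 75th percentile floor, the median over a gene's probe sets, _x_at probe sets allowed, cyclic loess on top of RMA (limma 3.58.1, 3 iterations), probe sets of 1 direction only, and 2-fold counts. The counting step was checked on simulated data.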

Additional observations from a re-analysis of the deposited data

Results flagged for a closer look

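The MPA difference had opposite signs without and with guanosine in 18 of 32 members, most of them by small amounts. In 3 of these the differences lay at least 1.5-fold apart, on 1 array each, which was not tested. The matching shares over all genes were not computed, so neither count is a result about the members as a whole. COL4A2 differed by -0.70 for MPA against control and by 0.27 for both compounds against guanosine. Its other probe set above the floor gave -0.09 and -0.11, with no change of sign. COL18A1 differed by 0.25 and -0.41. HAS2 had measured differences of -1.79 and 0.17, the first with the MPA signal below the floor.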

How the results depend on the processing

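No paired analysis was possible because each condition had 1 array, and no array could be left out. Of 105 medians computed under the alternatives, 99 stayed within 0.1 of the reported value. Of 36 counts whose reported value was above 0, 23 stayed within 1.5 times and 13 did not; the other counts were 0 throughout. Of 50 values for members past 1.5-fold, 39 kept their direction and stayed past it, 9 fell short and 2 reversed. Many of the 39 repeat the reported value by construction and are not separate checks. Keeping probe sets of 1 direction only leaves the values of the members it keeps unchanged. Allowing _x_at probe sets changed the probe set of none of these members, and setting dim signals to the floor altered only THBS1 and HAS2. With the median over a gene's probe sets, only CCN2 stayed past 1.5-fold for MPA against control, at 1.20. Shares over all genes were not counted with the median over probe sets or with the 75th percentile floor. For MPA against control, the median over a gene's probe sets gave a collagen median of -0.16. It gave 1 of 25 members higher and 1 lower, and ACTA2 at -0.15, from a probe set below the floor. The 75th percentile floor, which left 6 contractile and matricellular genes, gave a median of 0.27 for them and 0 of 21 members lower. At 2-fold 1 member was higher and 1 lower. For both compounds against MPA, the 75th percentile floor gave medians of 0.11 for the collagens and -0.23 for the contractile and matricellular genes. With it 1 of 21 members was higher. The median of probe sets gave -0.15 for the contractile and matricellular genes, 1 of 25 members higher, 1 lower and ACTA2 at 0.40, again from a probe set below the floor. At 2-fold 1 member was higher. For both compounds against guanosine, the median of probe sets gave -0.11 for the contractile and matricellular genes. The cause of the other shifts was not tested. With the floor in place of dimmer signals, an alternative chosen after the data were seen, 1 member was lower with MPA at 1.5-fold, and at 2-fold 1 was higher and 0 lower; for both compounds against MPA, 0 were higher at 2-fold. Cyclic loess gave COL13A1 0.49 for both compounds against MPA, and moved the median of all genes for MPA against control from 0.0024 to 0.03.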
